A study of Mus musculus with 24 samples.

Results

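Mitochondria carry their own ribosome, which makes the few proteins that mitochondrial DNA encodes, all of them subunits of the respiratory chain or the ATP synthase. Its RNA comes from mitochondrial DNA, whereas its proteins are encoded in the nucleus, made in the cytosol and imported. Genes of the small subunit carry the prefix Mrps and those of the large subunit Mrpl, with some exceptions given below. Some of these proteins have relatives in bacterial ribosomes and others are found only in mitochondria. Blood stem cells are known for low mitochondrial activity and for a dependence of their differentiation on respiration.

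The mitochondrial ribosomal protein genes described here are the 78 rows of a mouse RNA-seq count table, out of 56748, whose gene name is Mrpl or Mrps followed by a number and at most one letter from a to c. They fall into 51 proteins of the large subunit (31 with a bacterial relative and 20 specific to mitochondria), 26 of the small subunit (17 and 9) and Mrps36, which is named after the ribosome but is known as a component of the alpha-ketoglutarate dehydrogenase complex. In all, 72 members passed the filter on low counts and were tested. The other 6, Mrpl17, Mrpl33, Mrpl40, Mrpl53, Mrps6 and Mrps34, are listed at 0 counts in all 24 libraries. From its gene span alone, the background estimate described below would put 682 counts on Mrpl33 and 545 on Mrps6 over these libraries, so the zeros are not read as a limit on the level of these genes. Pseudogenes named after members were counted apart and had 0 to 19 counts in sum over all libraries.

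The 24 libraries were made from sorted bone marrow cells of mice that had all been given tamoxifen. There were 3 libraries in each of 8 groups: 4 populations labelled knockout (KO), namely HSC (haematopoietic stem cells) and MPP1, MPP2 and MPP4 (multipotent progenitors), and the same 4 labelled wild type (WT). The labels name neither the deleted gene nor the Cre driver, give no age or strain, list the tissue as blood although the sort was from bone marrow, and leave it unsaid if each library of a group is a mouse of its own. The error behind every p-value is thus that among the libraries sequenced, and may be of technical origin. The study concerns P-bodies, RNA granules of the cytoplasm, in myeloid leukaemia.

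Library totals ran from 2540511 to 3807003 counts. Ddx6, a helicase needed for P-bodies and taken here from general knowledge as the deleted gene, was not lower in the KO-labelled libraries: it had 67.0 to 93.6 CPM (counts per 1000000 counts of the library) in KO and 55.2 to 67.1 CPM in WT HSC, and on average over the populations its log2 fold change was 0.32 ± 0.09 (SE, adjusted p = 0.00355, edgeR's quasi-likelihood test). A count over the whole gene can miss the loss of single exons. The MPP2 and MPP4 labels also went against their markers: Flt3, known as a marker of MPP4 and absent from MPP2, averaged 543 CPM in KO and 1138 CPM in WT libraries labelled MPP2, but 84.5 and 64.9 CPM in KO and WT libraries labelled MPP4. Slamf1, known as a marker of MPP2 and not of MPP4, averaged 4.78 and 7.86 CPM in KO and WT libraries labelled MPP2, and 87.5 and 41.1 CPM in those labelled MPP4. These libraries are called MPP2-labelled and MPP4-labelled. The 9 stem and progenitor markers summed to 8708 to 8944 CPM in KO and 4288 to 4377 CPM in WT HSC. Mecom carried most of this, with a mean of 5343 CPM in KO and 1871 CPM in WT HSC, while 4 of the 9 were lower in KO HSC, Procr with 22.6 and 55.5 CPM, Cd34 with 30.1 and 52.1, Flt3 with 31.1 and 63.3, and Cd48 with 0.988 and 5.18 CPM in KO and WT. Markers of other blood lineages moved with the genotype. The 4 erythroid markers summed to 28.7 to 40.1 CPM in KO and 66.8 to 86.2 CPM in WT HSC. The 4 granulocyte and macrophage markers summed to 10.5 to 12.9 CPM in KO and 40.5 to 50.1 CPM in WT HSC. The 5 B and T cell markers summed to 0.316 to 2.03 CPM in KO and 5.04 to 8 CPM in WT HSC. Among the last, Ms4a1 was at 0 counts in all libraries. Of these markers, 2 of the 5 for B and T cells and 1 of the 4 for granulocytes and macrophages, S100a8, were at 0 in all KO HSC libraries. Klf1, unlike the other erythroid markers, had a higher mean in KO HSC, at 6.01 CPM, against 1.75 CPM in WT HSC. The erythroid sum was also lower in KO in the other populations, at 28.6 to 43.8 CPM in KO and 298 to 306 CPM in WT MPP1, 103 to 118 and 195 to 208 CPM in MPP2-labelled cells, and 105 to 128 and 298 to 313 CPM in MPP4-labelled cells. The granulocyte and macrophage sum was lower in KO MPP1, at 22.7 to 30.1 CPM, against 154 to 181 CPM in WT. It was higher in KO MPP4-labelled cells, at 298 to 369 CPM, against 158 to 167 CPM in WT. Mpo and Elane carried this rise, with means of 286 and 28.3 CPM in KO and 103 and 8.06 CPM in WT. Adgre1, at 29.3 CPM in KO and 47.6 CPM in WT, and S100a8, at 0.0929 and 2.40 CPM, were lower in KO there. In MPP2-labelled cells the genotypes overlapped, at 1731 to 1822 CPM in KO and 1652 to 1778 CPM in WT. The B and T cell sum was also lower in KO MPP1 (3.22 to 5.74 CPM, against 12.6 to 15.4 CPM in WT) and KO MPP4-labelled cells (5.26 to 11.7 CPM, against 13.2 to 21.5 CPM in WT), and overlapped in MPP2-labelled cells. The 5 markers of stroma and endothelium summed to 245 to 320 CPM in KO and 119 to 164 CPM in WT MPP4-labelled cells and to 676 to 829 and 529 to 595 CPM in MPP2-labelled cells; in MPP1, at 258 to 391 and 232 to 272 CPM, and in HSC, at 118 to 205 and 195 to 240 CPM, the genotypes overlapped. Pecam1 carried most of the stroma and endothelium sum, with means of 248 CPM in KO and 109 CPM in WT MPP4-labelled cells. Lepr, at 15.1 and 21.4 CPM, and Cdh5, at 6.61 and 11.4 CPM, were lower in KO there. So were Col1a1, at 1.15 and 5.61 CPM, and Cxcl12, at 1.06 and 1.74 CPM. In MPP2-labelled cells Pecam1 averaged 712 and 531 CPM, and Cxcl12, Col1a1 and Cdh5 but not Lepr were lower in KO. Pecam1 overlapped in HSC, with means of 156 CPM in KO and 177 CPM in WT. The other markers of this list had lower means in KO HSC. Cxcl12 was at 0 CPM in all KO HSC libraries and averaged 8.16 CPM in WT HSC. Cdh5 averaged 0.221 and 10.6 CPM, Lepr 4.80 and 15.1 CPM, and Col1a1 0.570 and 2.59 CPM in KO and WT HSC. The part of other blood lineages, stroma and endothelial cells in the results was not tested. Olfactory and vomeronasal receptor genes, silent in blood, had counts in every library, and their density per kb of gene span puts the background at 5.41 to 5.80% of all counts in KO and 20.4 to 23.6% in WT HSC, and at up to 30.9% in a WT MPP4-labelled library.

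Most members were expressed at low levels. The mean over all libraries ran from 1.93 to 167 CPM among the 72 tested, with a median of 8.56 CPM. Mrps28, a small-subunit protein related to bacterial S1, alone held 14.01% of all member counts. Per kb of merged exon length, Mrps28 reached 213 CPM, followed by Mrps21 with 21.3, Mrps2 with 20.8 and Mrps27 with 20.6 CPM per kb, all 4 of the small subunit. The lowest were Mrps30 with 0.559, Mrps26 with 0.605, Mrpl3 with 0.879 and Mrps17 with 0.955 CPM per kb. The distance between Mrps28 and the next member is the widest step in this order. Mrps28 has 783 bases of merged exons but the longest gene span of all members, 121773 bases, and per kb of span its level was 1.37 CPM, against 19.5 CPM for Mrps2. Over the 72 members the mean level had a Spearman correlation of 0.62 with gene span and of 0.27 with exon length; over 21576 tested genes with an annotated span these were 0.59 and 0.59. All points come from the same libraries, and the lengths from the annotation of an earlier mouse build.

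**Figure D1:**
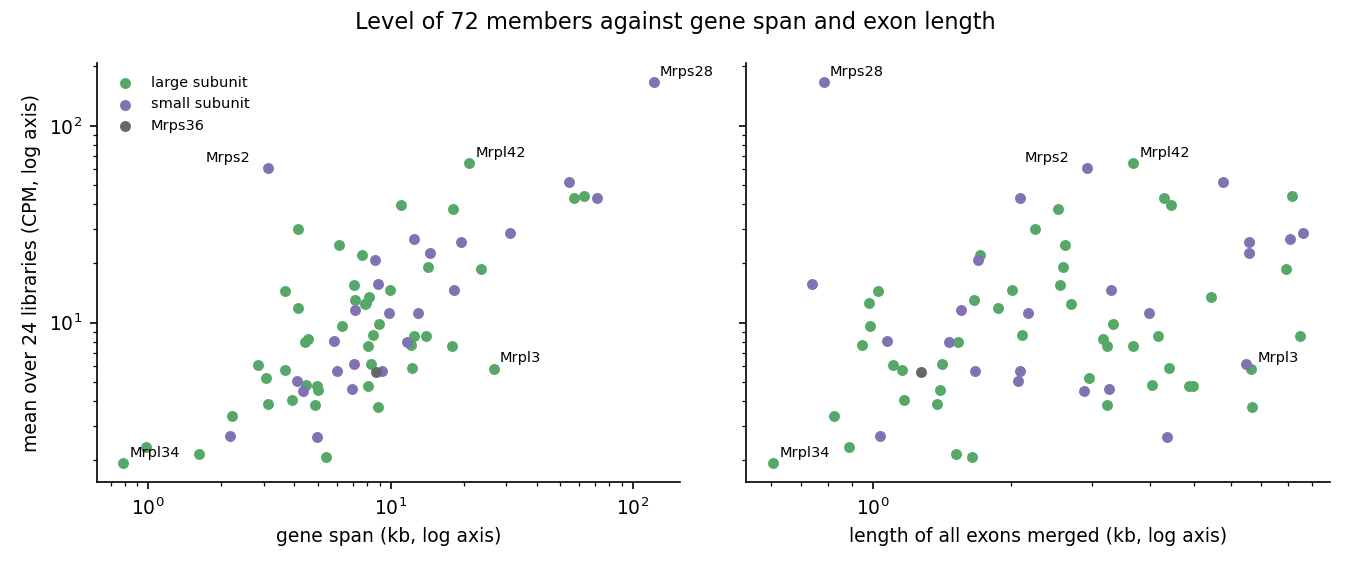
Mean level of the 72 tested members over 24 libraries (CPM, log axis) against gene span (left, kb, log axis) and merged exon length (right, kb, log axis); each point is a gene, coloured by subunit. Mrps28 has the highest level, 167 CPM, and the longest span, but one of the shorter exon lengths.

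Summed over all members, the level was higher in KO than in WT libraries of every population, with no overlap between the genotypes. The 3 KO HSC libraries had 1363, 1439 and 1367 CPM, on totals after TMM scaling, edgeR's correction for library composition, against 961, 860 and 976 CPM in WT HSC. The sums averaged 1183 ± 51.2 CPM in KO and 1004 ± 20.7 CPM in WT MPP1, 1508 ± 31.3 and 1220 ± 19.8 CPM in KO and WT MPP2-labelled cells, and 1258 ± 45.4 and 1005 ± 48.8 CPM in KO and WT MPP4-labelled cells (SD, n = 3 each). On these scaled totals the difference was widest in HSC, where the WT sum was the lowest of all groups. In bulk libraries, fewer cells that express a gene and less RNA per cell cannot be told apart.

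The size of this difference moved with the scaling and with the background. On unscaled totals the sums ran from 1164 to 1230 CPM in KO and from 924 to 1048 CPM in WT HSC, still without overlap. The means on unscaled totals were 1192 CPM in KO and 1004 CPM in WT HSC, and differed by more in the MPP2-labelled cells, at 1336 and 1114 CPM. After subtraction of the estimated background, also without TMM scaling, they ran from 1173 to 1242 CPM in KO and from 944 to 1097 CPM in WT HSC. They overlapped in the MPP1 libraries, at 1153 to 1249 CPM in KO and 1148 to 1164 CPM in WT, and in the MPP4-labelled libraries, at 1330 to 1450 and 1207 to 1336 CPM. In the MPP2-labelled libraries they stayed apart, at 1329 to 1395 CPM in KO and 1124 to 1161 CPM in WT. The estimated background made up 3.92 ± 0.248% of the members' counts in KO and 18.9 ± 0.260% in WT HSC (SD, n = 3 each).

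**Figure D2:**
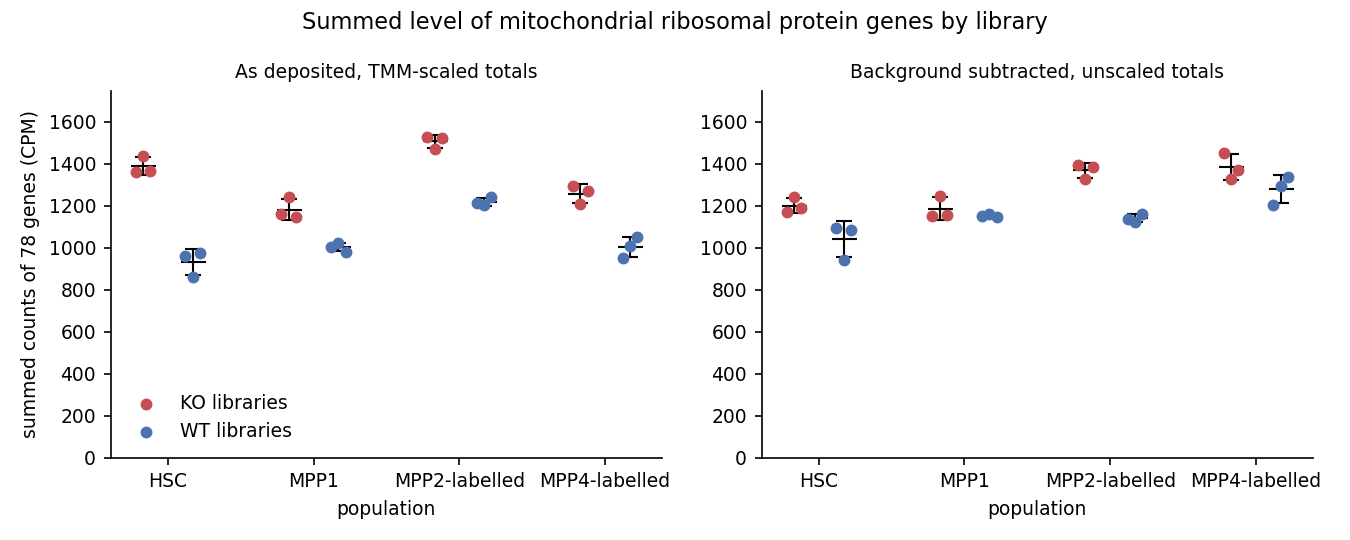
Summed level of the 78 members in each library (CPM) by population, on TMM-scaled totals (left) and after subtraction of the estimated background on unscaled totals (right); points are libraries, bars the mean ± SD of 3. On the left KO lies above WT in all 4 populations, and on the right the KO and WT libraries of MPP1 and MPP4-labelled cells overlap.

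In HSC, both subunits were higher in KO: large-subunit genes summed to 695 ± 33.5 CPM in KO and 493 ± 27.1 CPM in WT, and small-subunit genes to 690 ± 77.9 and 437 ± 39.8 CPM (SD, n = 3 each). The ratio of large to small subunit sums was 1.02 ± 0.156 in KO and 1.13 ± 0.0613 in WT HSC, and in MPP4-labelled cells 1.21 ± 0.118 in KO and 1.05 ± 0.059 in WT (SD, n = 3 each); over the 24 libraries it ran from 0.848 to 1.32. With Mrps28 left out, the member sum was 1145 to 1225 CPM in KO and 771 to 849 CPM in WT HSC.

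In HSC, 9 of the 72 members tested rose in KO cells and 0 fell at an adjusted p below 0.05 (called, here and below; edgeR's quasi-likelihood test over all 21964 genes tested). Of all genes tested, 43.1% were called, 18.3% higher and 24.8% lower, so the members' share called higher, 12.5%, was below that of all genes. The median log2 fold change of the members was 0.57, against -0.31 over all genes tested. In 62 of 72 members (86.1%) the fold change was above 0, as it was in 43.7% of all genes. The KO libraries lay wholly above the WT libraries for 18 members and wholly below for 1, whereas 23.1% and 30.8% of all genes did so.

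Fold changes in HSC depended on level among all genes, and less so among the members. Of tested genes that averaged 32 CPM or more, 51.8% were called higher, with a median log2 fold change of 0.49; the 9 members there had a median of 0.44, and 4 were called. Below 4 CPM all genes had a median of -1.98 and the 10 members of 0.92, with 0 members called. Between 4 and 8 CPM the medians were 0.60 for the 22 members and -1.33 for all genes. The members thus lay near other genes at high levels and above them at low levels. Among the members, the fold change in HSC had a Spearman correlation of -0.42 with gene span and of -0.12 with mean level (72 genes of the same libraries). With the estimated background share of each member in WT HSC the correlation was -0.09.

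Mrps2, a small-subunit protein related to bacterial S2, had 83.6, 126 and 80.2 CPM in the KO HSC libraries, against 31.0, 42.2 and 52.6 CPM in WT HSC. No WT library reached a KO library. Its log2 fold change was 1.20 ± 0.24 (SE, adjusted p = 7.87e-05). Mrpl42, a mitochondria-specific protein of the large subunit, had 71.4, 77.0 and 69.2 CPM in KO HSC, against 38.2, 40.8 and 33.1 CPM in WT HSC. The libraries of each genotype lay close together, and the log2 fold change was 0.95 ± 0.19 (SE, adjusted p = 6.30e-05). Mrps28 had 202, 214 and 222 CPM in KO HSC, against 112, 89.1 and 155 CPM in WT HSC. The WT libraries spread widely and the KO libraries did not overlap them; the log2 fold change was 0.84 ± 0.16 (SE, adjusted p = 6.01e-05).

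Mrpl55, related to bacterial L31, had 23.3, 19.3 and 17.4 CPM in KO HSC, against 3.6, 4.77 and 8.29 CPM in WT HSC, a log2 fold change of 1.84 ± 0.47 (SE, adjusted p = 0.00159). This was a 3.59-fold difference from few counts. Mrps10, related to bacterial S10, had 44.6, 55.4 and 23.1 CPM in KO HSC, against 15.0, 22.5 and 18 CPM in WT HSC. The third KO library came close to the highest WT library, and the call was lost without the second KO library (log2 fold change 0.87, adjusted p = 0.0696), against 1.14 ± 0.34 with it (SE, adjusted p = 0.00672). Mrpl21, related to bacterial L21, had 23.0, 22.6 and 19.0 CPM in KO HSC, against 11.4, 9.28 and 7.71 CPM in WT HSC. Its log2 fold change of 1.18 ± 0.41 (SE, adjusted p = 0.0184) missed the threshold without KO HSC replicate 1 or 2 or WT HSC replicate 2 or 3, at adjusted p = 0.0544, 0.0508, 0.0534 and 0.0749.

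Mrpl32, related to bacterial L32, had the largest called rise and the lowest level of the 9 genes. It had 7.67, 7.77 and 5.69 CPM in KO HSC, against 0.554, 3.18 and 0.286 CPM in WT HSC, a log2 fold change of 2.35 ± 0.88 (SE, adjusted p = 0.0291). The call was lost without KO HSC replicate 1 or 2 or WT HSC replicate 1 or 3, with log2 fold changes of 2.28, 2.27, 1.98 and 1.89. The remaining calls in HSC were Mrpl37, a mitochondria-specific protein, at 0.72 ± 0.27, and Mrps25, at 0.84 ± 0.34 (log2 fold change ± SE, adjusted p = 0.0269 and 0.0392). Neither was called with median-of-ratios size factors, with DESeq2, among genes of at least 20 CPM or with only the groups compared, nor was Mrps25 with no filter. Exons of Mrps25 overlap those of Nr2c2 on the opposite strand over 4590 bases, and the strand setting of the counting is not given, so the reads of the pair cannot be told apart. In all, 33 of the 78 members share exon bases with another gene, so part of their reads may be uncertain in the same way. Among the tested members described here by name these are also Mrpl3 (with Gm38077 on the same strand and Gm47106 on the opposite one), Mrpl10 (Gm11574), Mrpl13 (Mtbp), Mrpl21 (Ighmbp2) and Mrpl36 (Ndufs6). So are Mrpl48 (Rab6a), Mrpl58 (Ict1os), Mrps18b (Gm16279), Mrps18c (Gm43511, on the same strand), Mrps26 (4930473A02Rik), Mrps27 (6430562O15Rik) and Mrps30 (B430218F22Rik).

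After subtraction of the background, the call in HSC ended for 8 of these 9 genes. Mrpl42 stayed called (0.51 ± 0.16, adjusted p = 0.0474), while Mrps2 had a log2 fold change of 0.66 ± 0.25 (adjusted p = 0.108), Mrpl55 of 1.41 ± 0.52 (adjusted p = 0.0946) and Mrps28 of 0.49 ± 0.20 (adjusted p = 0.125). Their directions did not change. After subtraction 8.82% of all genes tested were called in HSC. The estimated background share in WT HSC before subtraction was, for these 4 genes, 1.20% for Mrps2, 9.06% for Mrpl42, 10.6% for Mrpl55 and 16.6% for Mrps28, against a median of 18.3% over the members.

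**Figure D3:**
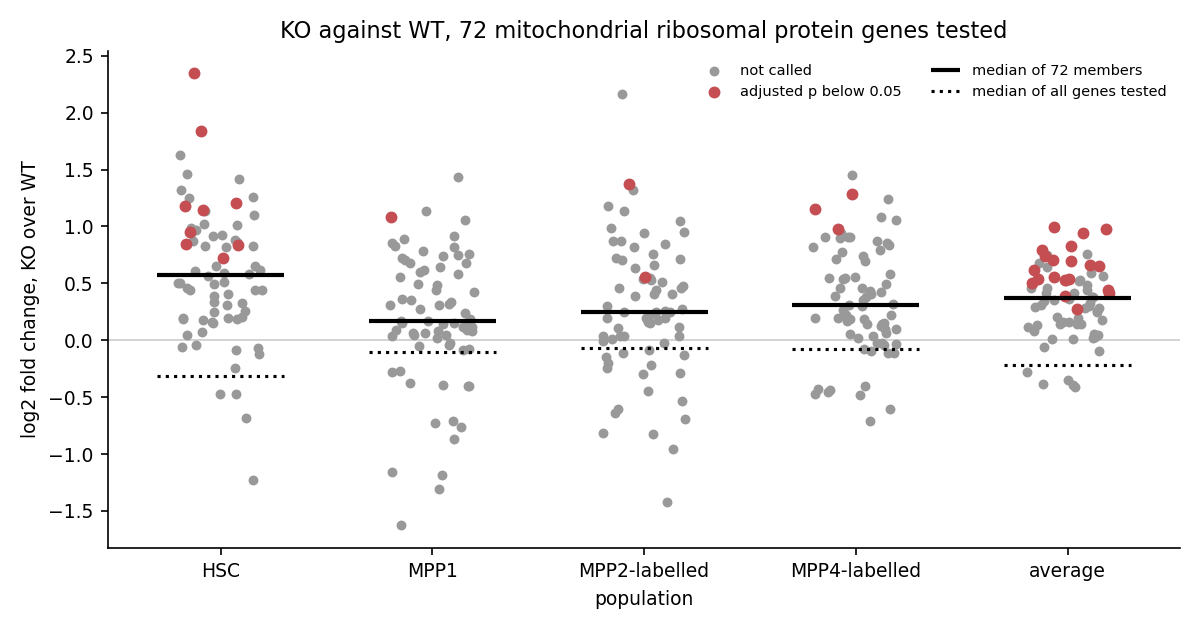
Log2 fold changes of the 72 tested members, KO over WT, in each population and on average; red points passed an adjusted p of 0.05, solid bars are the members' medians and dotted bars the medians of all genes tested. All red points lie above 0, and the members' median lies above that of all genes in every column, by 0.88 in HSC.

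In MPP1, 1 of 72 members was called higher and 0 lower, where 13.6% of all genes were called, 8.71% higher and 4.9% lower. The median log2 fold change was 0.17 for the members and -0.10 for all genes. Mrps15, a small-subunit protein related to bacterial S15, was the called gene. It had 29.8, 26.1 and 23.1 CPM in KO MPP1, against 10.9, 17.4 and 8.96 CPM in WT MPP1, with no overlap and a log2 fold change of 1.08 ± 0.36 (SE, adjusted p = 0.0374). This call was lost when any library but WT MPP1 replicate 2 was left out, at log2 fold changes of 0.90 to 1.17. It was also lost with median-of-ratios size factors, with no filter, among genes of at least 20 CPM and after background subtraction. KO libraries lay wholly above WT for 10 members and wholly below for 7, where 17.3% and 17.8% of all genes did so; the lowest value was that of Mrps17, at -1.63 ± 0.64 (adjusted p = 0.0881), which DESeq2 called as a fall (-1.73, adjusted p = 0.019).

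In MPP2-labelled cells, 2 members were called higher and 0 lower, with 7.9% of all genes called, 3.73% higher and 4.17% lower. The medians were 0.25 for the members and -0.07 for all genes. Mrpl21 had 29.5, 24.5 and 29.99 CPM in the KO libraries, against 11.2, 12.7 and 8.29 CPM in WT, a log2 fold change of 1.38 ± 0.41 (SE, adjusted p = 0.0272). Mrpl42 had 102, 94.7 and 109 CPM in KO, against 67.1, 70.3 and 71.1 CPM in WT, 0.55 ± 0.18 (SE, adjusted p = 0.0486). For both genes the genotypes stood clearly apart. Neither call was firm: leaving out single libraries ended that of Mrpl42 in all 6 cases (0.50 to 0.60) and that of Mrpl21 in all but the case without KO MPP2 replicate 2 (1.22 to 1.51 in the others). Here 12 members had all KO above all WT libraries and 1 the reverse, with 11.4% and 13.8% of all genes.

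In MPP4-labelled cells, 3 members were called higher and 0 lower, with 17.9% of all genes called, 11.4% higher and 6.47% lower. The medians were 0.31 and -0.08. Mrps2 had 47.7, 77.0 and 58.8 CPM in KO, against 28.1, 30.4 and 16.1 CPM in WT, a log2 fold change of 1.29 ± 0.25 (SE, adjusted p = 0.000153). Mrpl48, a mitochondria-specific protein of the large subunit, had 65.2, 48.8 and 58.8 CPM in KO, against 30.5, 33.9 and 23.2 CPM in WT, 0.98 ± 0.26 (SE, adjusted p = 0.00584). Both remained called after background subtraction, Mrps2 at 0.90 (adjusted p = 0.0389) and Mrpl48 at 1.14 (adjusted p = 0.0291). Mrpl10, related to bacterial L10, had 23.97, 24.9 and 26.3 CPM in KO, against 8.97, 13.1 and 11.6 CPM in WT. The KO libraries were nearly equal and all above WT, at 1.15 ± 0.37 (SE, adjusted p = 0.0246), but the call was lost without WT MPP4 replicate 1 or 3 or KO MPP4 replicate 3 (1.01 to 1.18). It also ended at 20 CPM (adjusted p = 0.0714), under median-of-ratios scaling (0.0643), with only the groups compared (0.0838) and after subtraction (0.187), and kept with DESeq2 (0.0347). For 12 members all KO lay above all WT libraries and for 0 below, with 16.3% and 15.4% of all genes.

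Averaged over the 4 populations, 20 of 72 members (27.8%) rose and 0 fell, where 53.2% of all genes were called, 22.9% higher and 30.3% lower. The members' share called higher was near that of all genes, while falls, frequent among all genes, were not called in any member. The median log2 fold change was 0.37, against -0.22 over all genes tested. At 32 CPM or more the medians were 0.16 for the 9 members and 0.30 for all genes. At that level the members also lay lower in HSC and in MPP1 (0.12 and 0.25). They lay higher in MPP2-labelled (0.25 and 0.08) and MPP4-labelled cells (0.42 and 0.33). The 20 called genes were 14 of 47 large-subunit and 6 of 24 small-subunit members. By origin, they were 9 of 29 members of the large subunit with a bacterial relative and 5 of 18 specific to mitochondria, and 5 of 16 and 1 of 8 in the small subunit. With the MPP2-labelled and MPP4-labelled libraries left out, the average over HSC and MPP1 called 14 members, a choice made after the data were seen.

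Mrps2 had the smallest p, with a log2 fold change of 0.83 ± 0.12 (SE, adjusted p = 2.55e-07), a 1.77-fold difference. It was positive in all 4 populations, although single values in MPP1 (0.35 ± 0.24) and MPP2-labelled cells (0.46 ± 0.23) were not called. It was the one member still called after background subtraction (0.48 ± 0.13, adjusted p = 0.00918), where 23.6% of all genes tested were called. Mrpl55 followed with 0.97 ± 0.23 (SE, adjusted p = 0.000463), Mrps15 with 0.74 ± 0.18 (adjusted p = 0.000693), Mrpl21 with 0.79 ± 0.20 (adjusted p = 0.00141) and Mrpl39, a mitochondria-specific protein of the large subunit, with 0.55 ± 0.14 (adjusted p = 0.000858). Mrpl39 was called in no single population, but its value was alike in all 4, at 0.44, 0.56, 0.66 and 0.56 in HSC, MPP1, MPP2-labelled and MPP4-labelled cells. Mrpl38 and Mrpl45, both specific to mitochondria, had 0.65 ± 0.21 and 0.51 ± 0.18 (adjusted p = 0.00916 and 0.0182), and Mrpl13, related to bacterial L13, 0.53 ± 0.19 (adjusted p = 0.0204). Mrps10 (0.71 ± 0.17), Mrpl42 (0.41 ± 0.09) and Mrps28 (0.28 ± 0.08) were also called, but their sign was not the same in every population. The other 9 called members had log2 fold changes of 0.39 (Mrps25) to 0.99 (Mrpl32).

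Of the 72 members, 24 had a fold change above 0 in all 4 populations (33.3%), 36 in 3, 7 in 2, 5 in 1 and 0 in none. Over all genes tested, 19.5% were above 0 in all 4 and 25.5% in none. These counts rest on fold changes whose errors are often wider than their values.

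To show the sequences in front of such genes, the 250 bases before the RefSeq start were read for the first 3 of these genes, in the order of their p, that have an entry in the RefSeq table (GRCm38.p6) and a window outside the gene's own span; Mrps2 was passed over for the second reason. They are written 5′ to 3′ on the strand of the gene, with CG dinucleotides in capitals. The window of Mrpl55 is chr11:59202236-59202485 (plus strand, 64% G or C, 17 CG), that of Mrps15 chr4:126046678-126046927 (plus strand, 53.6%, 9 CG) and that of Mrpl39 chr16:84735245-84735494 (minus strand, 67.2%, 28 CG).
Mrpl55: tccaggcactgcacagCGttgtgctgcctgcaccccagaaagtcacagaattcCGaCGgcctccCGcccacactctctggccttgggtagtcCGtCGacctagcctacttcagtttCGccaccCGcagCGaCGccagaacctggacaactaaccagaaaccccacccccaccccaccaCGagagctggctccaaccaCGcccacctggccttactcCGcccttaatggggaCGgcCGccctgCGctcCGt
Mrps15: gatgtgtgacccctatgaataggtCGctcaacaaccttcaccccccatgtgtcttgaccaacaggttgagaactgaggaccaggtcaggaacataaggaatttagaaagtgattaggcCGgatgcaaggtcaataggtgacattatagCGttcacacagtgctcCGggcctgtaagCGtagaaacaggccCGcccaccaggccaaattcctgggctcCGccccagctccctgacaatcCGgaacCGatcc
Mrpl39: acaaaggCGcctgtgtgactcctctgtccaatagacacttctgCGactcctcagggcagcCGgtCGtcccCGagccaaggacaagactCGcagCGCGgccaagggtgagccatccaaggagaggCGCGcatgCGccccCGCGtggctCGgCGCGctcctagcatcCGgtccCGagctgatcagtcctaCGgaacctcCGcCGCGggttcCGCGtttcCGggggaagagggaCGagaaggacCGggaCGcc

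Of the 78 members, 69 had an entry. Their windows had a median of 58.4% G or C and 17 CG dinucleotides, against 52% and 6 over 27025 RefSeq windows. Short motifs known from genes of mitochondrial function were searched on both strands. The ETS core CCGGAAG was in 17 of 69 member windows (24.6%) and in 7.05% of all, the NRF1 core GCATGCGC in 8 (11.6%) and 2.32%, and the YY1 core AAGATGGC in 4 (5.80%) and 1.59%. The other motifs were nearer to or below the share of all windows, with the E-box CACGTG in 5 (7.25%) and 6.05%, CCAAT in 25 (36.2%) and 34.5%, and TATAAA in 4 (5.80%) and 13.0%. The NRF1 core overlaps its own reverse complement, so 1 run can be counted on both strands. Among the windows of the 20 members called on average, 15 had an entry; of these 0 held the ETS core and 2 the NRF1 core, against 15 and 4 of the 49 other tested members with an entry. A match is a string of letters and no measure of binding. Of the called members, Mrpl32, chosen after its value was seen, held the most NRF1 cores, 4 (a pair of them overlapping), shown in capitals in its window chr13:14613038-14613287 (minus strand, 56% G or C), where the one nearest to the start begins 22 bases before it.
Mrpl32: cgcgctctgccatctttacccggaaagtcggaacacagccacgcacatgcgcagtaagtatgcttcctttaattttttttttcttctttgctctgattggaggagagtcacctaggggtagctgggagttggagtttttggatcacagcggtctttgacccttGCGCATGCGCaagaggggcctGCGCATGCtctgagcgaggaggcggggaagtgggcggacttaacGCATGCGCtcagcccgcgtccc

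The KO effect differed between populations for 3 members, Mrpl42, Mrpl48 and Mrps28, by the interaction of genotype and population, where 17.7% of all genes were called. Mrpl42 was higher in KO than in WT in HSC (0.95 ± 0.19) but had a value of -0.27 ± 0.18 in MPP1, where the KO libraries had 45.8, 49.4 and 45.3 CPM, against 64.4, 50.2 and 55.4 CPM in WT (interaction adjusted p = 0.00419). All 3 KO libraries in MPP1 lay below WT, and after background subtraction this was a called fall (-0.60 ± 0.16, adjusted p = 0.0238). Mrpl48 had its rise in MPP4-labelled cells and a value of -0.61 ± 0.26 in MPP2-labelled cells, with 27.9, 38.6 and 29.99 CPM in KO, against 58.4, 47.8 and 41.1 CPM in WT (interaction adjusted p = 0.0123). Mrps28 rose in HSC and was at -0.09 ± 0.16 in MPP4-labelled cells, with 150, 108 and 206 CPM in KO, against 161, 155 and 180 CPM in WT (interaction adjusted p = 0.0136). There the KO libraries enclosed the WT libraries. The difference for Mrps28 was no longer called without WT HSC replicate 2 (adjusted p = 0.0853) or after background subtraction (adjusted p = 0.169). The next members by p, Mrps2 (adjusted p = 0.0609), Mrpl16 (adjusted p = 0.137) and Mrpl37 (adjusted p = 0.152), were not called. The interaction for Mrps2 was called with no filter (adjusted p = 0.0232). It was also called without WT HSC replicate 3, WT MPP1 replicate 3, WT MPP4 replicate 2 or KO MPP4 replicate 1 (adjusted p = 0.0353, 0.0346, 0.0375 and 0.0328).

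**Figure D4:**
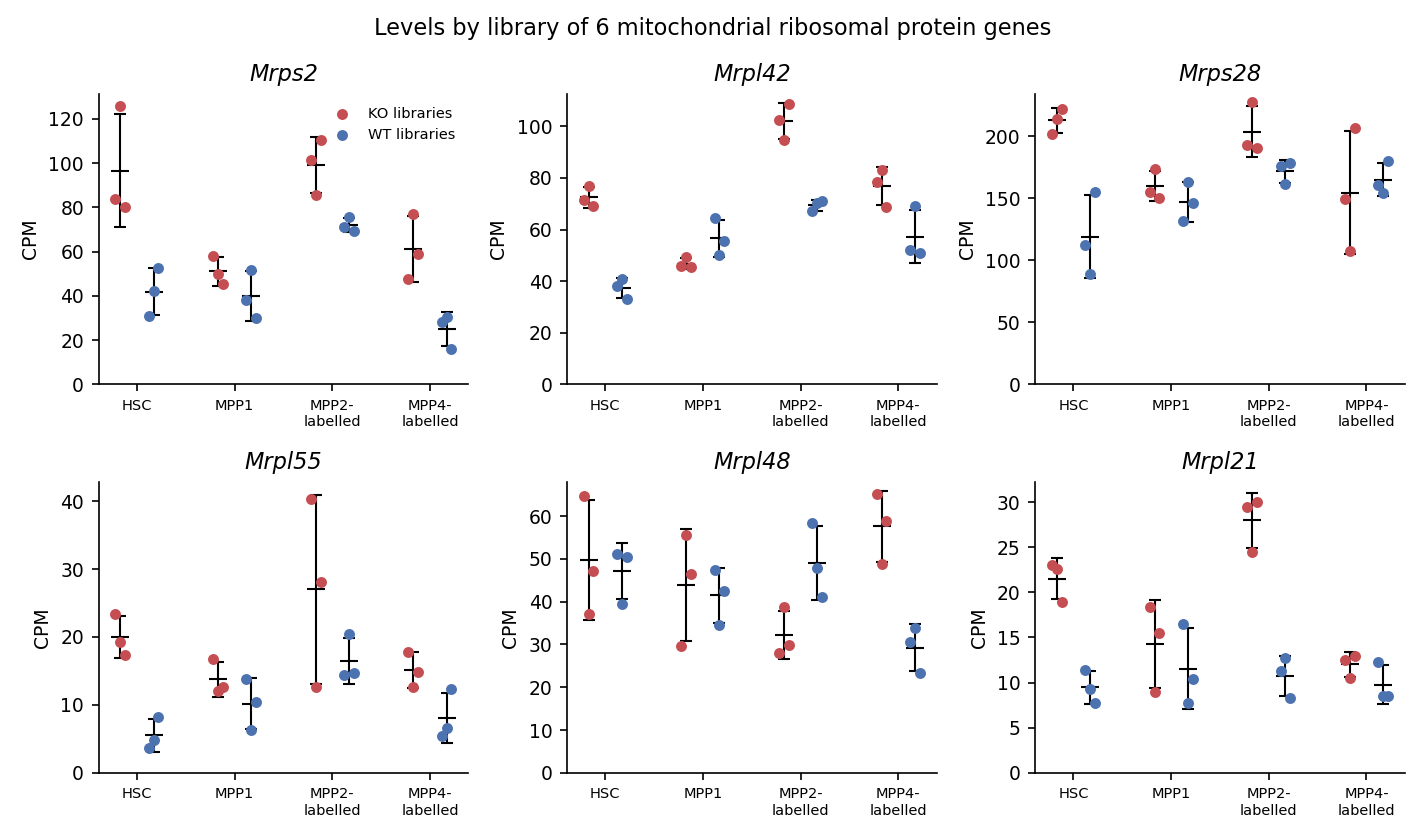
Levels of 6 members in each library (CPM) by population, KO left of WT; points are libraries, bars the mean ± SD of 3. Mrps2 lies higher in KO without overlap except in MPP1, Mrpl42 lies higher in KO without overlap in HSC and MPP2-labelled cells, and Mrpl48 lies higher in KO in MPP4-labelled cells and lower in MPP2-labelled cells.

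Among WT cells, the member sum was 1004 ± 20.7 CPM in MPP1, 1220 ± 19.8 CPM in MPP2-labelled, 1005 ± 48.8 CPM in MPP4-labelled cells and 932 ± 63.5 CPM in HSC (SD, n = 3 each). The MPP2-labelled libraries stood above all other WT libraries. The MPP4-labelled libraries, at 954 to 1051 CPM, overlapped both those of MPP1, at 983 to 1024 CPM, and those of HSC, at 860 to 976 CPM. This order rests on the TMM scaling: on unscaled totals the means were 1168 CPM in MPP4-labelled and 1114 CPM in MPP2-labelled cells, with libraries of 1115 to 1211 and 1099 to 1132 CPM. After background subtraction, also without TMM scaling, the MPP4-labelled libraries were highest, at 1207 to 1336 CPM, against 1124 to 1161 CPM in MPP2-labelled cells and 944 to 1097 CPM in HSC. The 3 comparisons below share the WT HSC libraries.

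In WT MPP1 against WT HSC, 0 of 72 members were called at an adjusted p below 0.05 in edgeR, 2 had an unadjusted p below 0.05, and DESeq2 called 1, Mrpl42 (0.62, adjusted p = 0.00492); 3.8% of all genes were called, 1.97% higher and 1.83% lower. The medians were 0.15 for the members and -0.02 for all genes. The MPP1 libraries lay wholly above the HSC libraries for 7 members and wholly below for 2, where 10.1% and 10.2% of all genes did so. In WT MPP2-labelled cells against WT HSC, 6 members were called higher and 0 lower, with 19.1% of all genes called, 11.7% higher and 7.37% lower, and the medians were 0.36 and -0.16. For 15 members all MPP2-labelled lay above all HSC libraries and for 1 below, with 19.8% and 19.6% of all genes. The rises were Mrpl36, related to bacterial L36 (2.00 ± 0.69, adjusted p = 0.0339), Mrpl55 (1.57 ± 0.47, adjusted p = 0.0127), Mrps15 (1.11 ± 0.36, adjusted p = 0.0242), Mrpl42 (0.89 ± 0.19, adjusted p = 0.000296), Mrps2 (0.78 ± 0.24, adjusted p = 0.0149) and Mrps28 (0.53 ± 0.16, adjusted p = 0.0158). Of these, Mrpl42 alone was called in every leave-one-out fit and after background subtraction; without WT HSC replicate 1, without WT HSC replicate 2 and without WT MPP2 replicate 2 the count was 2, 3 and 2. In WT MPP4-labelled cells against WT HSC, 1 member was called higher and 1 lower, with 10.3% of all genes called, 2.91% higher and 7.43% lower. The libraries stood apart for 5 members above and 3 below, with 11.7% and 14% of all genes. Mrpl42 rose by 0.62 ± 0.19 (adjusted p = 0.0222) and Mrps2 had 28.1, 30.4 and 16.1 CPM in MPP4-labelled cells, against 31.0, 42.2 and 52.6 CPM in HSC, -0.75 ± 0.25 (adjusted p = 0.0450). Both calls depended on single libraries: Mrps2 missed the threshold without WT HSC replicate 2 or 3 or WT MPP4 replicate 1 or 3 (-0.75, -0.56, -0.83 and -0.53), and Mrpl42 without WT HSC replicate 1 or 3 or WT MPP4 replicate 2 (0.64, 0.53 and 0.46). The fall of Mrps2 also ended under median-of-ratios scaling (-0.62, adjusted p = 0.122), with DESeq2 (adjusted p = 0.0766), at 20 CPM (0.0817), after subtraction (0.230) and with only the groups compared (0.139). The rise of Mrpl42 ended with no filter (0.0850) and with only the groups compared (0.110). It stayed called with DESeq2 (0.75, adjusted p = 0.000209) and after subtraction (0.86, adjusted p = 0.000577). The same held at 20 CPM (0.79, adjusted p = 0.00108) and under median-of-ratios scaling (0.74, adjusted p = 0.00463). Mrps28, not called here, was called higher under 6 alternatives, among them DESeq2 (0.60, adjusted p = 0.00535), 20 CPM (0.65, adjusted p = 0.00219) and subtraction (0.71, adjusted p = 0.0208).

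Some members carry names that do not match their place. Mrps18a and Mrps30 sit in the large subunit, Mrps18b and Mrps18c in the small one, all 3 Mrps18 genes being relatives of bacterial S18, and Mrpl58 is known as a peptidyl-tRNA hydrolase that frees stalled ribosomes and is also part of the large subunit. None of these, nor Mrps36, was called in any KO comparison. Averaged over the populations, the log2 fold changes were 0.01 ± 0.32 for Mrps18a, 0.75 ± 0.40 for Mrps18b, 0.46 ± 0.30 for Mrps18c, -0.40 ± 0.42 for Mrps30, 0.21 ± 0.27 for Mrpl58 and 0.59 ± 0.39 for Mrps36. Their mean levels over all libraries were 3.72 to 9.84 CPM.

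Other genes that serve mitochondrial translation were read from the same fit, where 18.3% of all genes tested were called higher and 24.8% lower in HSC, and 22.9% and 30.3% on average. Of 5 mitoribosome proteins under other names that were tested, 2 rose in KO HSC, Dap3 of the small subunit (0.78 ± 0.23, adjusted p = 0.00535) and Chchd1 (2.91 ± 0.89, adjusted p = 0.00832), and 3 on average, with Ptcd3 as the third (0.42 ± 0.12, adjusted p = 0.0024). Of 16 translation factors tested, 2 rose and 1 fell in HSC: the release factor Mtrf1l (1.05 ± 0.23, adjusted p = 0.000295) and Lrpprc, which stabilises mitochondrial messenger RNAs (0.73 ± 0.19, adjusted p = 0.00154), rose, and Mtrf1 fell by 1.22 ± 0.50 (adjusted p = 0.0460). Of 24 assembly factors tested 4 rose and 0 fell, led by Rcc1l (1.04 ± 0.23, adjusted p = 0.000316) and the protease subunit Afg3l2, which processes Mrpl32 (0.86 ± 0.19, adjusted p = 0.000387). Of 21 aminoacyl-tRNA synthetases and related enzymes of mitochondria tested, which charge transfer RNAs, 7 rose and 0 fell, led by Cars2 (0.80 ± 0.14, adjusted p = 8.11e-06) and Fars2 (0.61 ± 0.11, adjusted p = 2.49e-05).

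Respiratory chain and cytosolic ribosome genes were counted in the same way, against the same shares of all genes. In HSC, 27 of 78 tested nuclear genes of complexes I to V were called higher and 0 lower (median log2 fold change 0.74), as were 7 of 11 mitochondrially encoded protein genes (0.86). Cytosolic ribosomal protein genes had 33 rises and 1 fall among 77 (0.48). In MPP1, these cytosolic genes had 0 rises and 6 falls (8.71% and 4.9% of all genes). Their median there was -0.17, whereas the median of the mitochondrial ribosomal protein genes was 0.17. The medians were -0.05 and 0.25 in MPP2-labelled cells, and near each other in MPP4-labelled cells, at 0.33 and 0.31. In MPP4-labelled cells 18 of 77 cytosolic genes were called higher and 0 lower, where 11.4% and 6.47% of all genes were. On average over the populations 36 of 78 complex I to V genes, 8 of 11 mitochondrially encoded genes and 22 of 77 cytosolic ribosomal genes were called higher, and 5 of the last lower, beside 20 of the 72 mitochondrial ribosomal protein genes. No test was made of the difference between lists.

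Under other processing choices the members' median in HSC stayed above 0. With median-of-ratios size factors the median of all genes moved to -0.46, a shift of more than 0.1, and that of the members to 0.42. A change of scaling shifts every gene by about the same amount, so the distance between them, 0.88 under both scalings, could hardly differ. Among genes averaging 20 CPM or more, of which 17 are members, the medians were 0.18 for the members and 0.11 for all genes, and after background subtraction 0.25 and -0.22.

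**Figure D5:**
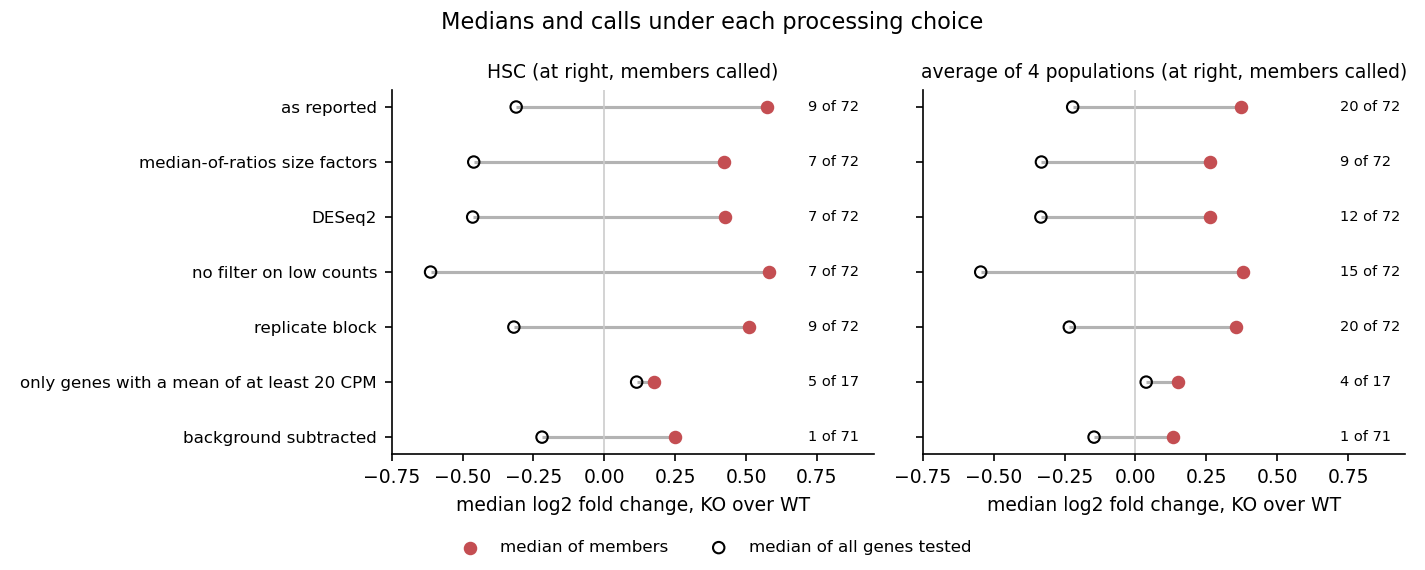
Median log2 fold change, KO over WT, of the members (red) and of all genes tested (open) in HSC (left) and on average (right) under each processing choice, with the number of members called of those tested. The red point lies right of the open one in every row, and the distance is smallest, 0.06 in HSC, among genes averaging 20 CPM or more.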

How the data were processed

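RNA-seq counts of 24 libraries in 8 groups of 3 were used. The deposited table held whole-number counts per gene, not normalized. Per the labels' protocols, RNA came from a miRNeasy Micro kit and libraries from NEBNext Ultra II. Per the submitters' processing notes, mm39, SAMtools 1.12 and DESeq2 are listed without a role; aligner, counter and strand setting are not given in the sources used here.

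Of 56748 genes, 21964 passed edgeR's filterByExpr. A fit of all 8 group means by quasi-likelihood (edgeR 4.0.16, R 4.3.3, TMM scaling, 16 residual degrees of freedom; biological coefficient of variation 0.393) gave 9 comparisons, adjusted by Benjamini-Hochberg over all genes and called below 0.05; each SE was taken as |log2 fold change| / sqrt(F). Levels are CPM on TMM-scaled totals. Gene spans, exon lengths and overlaps were read from the GENCODE annotation of GRCm38, an earlier build, where 91.9% of identifiers had an entry. Background was estimated from counts per kb of span of 1491 olfactory and vomeronasal receptor genes, times each gene's span, and subtracted in an alternative fit of 18907 genes. The fit was also repeated with DESeq2's median-of-ratios factors, without a filter, with a mean of at least 20 CPM, with DESeq2 1.42.0, on the groups compared alone, with the replicate number as a block, and without each library in turn. The code was tested on simulated data.

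Named members were, by rule, the called members that moved most per comparison, up to 6 each way (at least 1 CPM, no overlap), 8 by p for the average with 1 sign in all 4 populations, 6 by p for the interaction, the 4 highest and 4 lowest per exon kb, 6 with unusual names, up to 4 genes per other list by p, and Ddx6; Mrpl37, Mrps25 and other called members were named after their values were seen, as were Mrpl32's window and Mrps17 in MPP1. The members and lists were chosen with earlier results of these data known.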

Additional observations from a re-analysis of the deposited data

Results flagged for a closer look

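The effect of genotype differed between the 4 populations for 3 members, by the test of the interaction itself in edgeR's quasi-likelihood fit. For Mrpl42 the adjusted p was 0.00419, with log2 fold changes of 0.95 ± 0.19, -0.27 ± 0.18, 0.55 ± 0.18 and 0.42 ± 0.18 (SE) in the populations HSC, MPP1, MPP2-labelled and MPP4-labelled, an order kept below. For Mrpl48 it was 0.0123, with 0.08 ± 0.25, 0.09 ± 0.26, -0.61 ± 0.26 and 0.98 ± 0.26. For Mrps28 it was 0.0136, with 0.84 ± 0.16, 0.12 ± 0.16, 0.25 ± 0.16 and -0.09 ± 0.16. These are 3 of the 72 members tested, and 17.7% of all genes tested passed the same threshold.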

How the results depend on the processing

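Counts of members called, KO against WT, changed as follows. In HSC, 9 calls became 5 among genes of at least 20 CPM and 1 after background subtraction. In MPP1, 1 call became 0 with median-of-ratios size factors or no filter, 2 with DESeq2 (1 of them the fall of Mrps17) and 3 when only the groups compared were fitted. At 20 CPM and after subtraction the rise of Mrps15 was lost and a fall of Mrpl42 was called (-0.53 and -0.60). In MPP2-labelled cells, 2 became 1 with median-of-ratios factors, at least 20 CPM or the replicate block, and 0 with no filter or subtraction. The average over populations had 20 calls, but 9 with median-of-ratios factors, 4 at 20 CPM, 12 with DESeq2 and 1 after subtraction. Among WT cells against HSC, MPP1 had 0 calls, but 1 with median-of-ratios factors, at 20 CPM, with DESeq2 or after subtraction, MPP2-labelled cells from 6 to 2 at 20 CPM and 1 after subtraction, and MPP4-labelled cells from 2 to 0 when only the groups compared were fitted. At 20 CPM, falls were called that were not called in the fit of all 21964 genes, for Mrpl1 in HSC (-0.79), Mrpl42 in MPP1 (-0.53), and Mrps28 (-0.41) and Mrps27 (-0.75) in MPP4-labelled cells.

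The members' median log2 fold change in HSC (0.57) was 0.42 with median-of-ratios factors and with DESeq2, 0.18 at 20 CPM, 0.51 with the block, 0.25 after subtraction and 0.34 with only the groups compared. In MPP1 (0.17) it was 0.074 with both, 0.059 at 20 CPM, 0.017 after subtraction and 0.13 with only the groups compared. In MPP4-labelled cells (0.31) it was 0.15 with median-of-ratios factors and DESeq2, and 0.066 after subtraction; in MPP2-labelled cells (0.25) it was 0.14 at 20 CPM. The average (0.37) was 0.26 with both, 0.15 at 20 CPM and 0.13 after subtraction. For WT MPP1 against HSC (0.15) the sign turned at 20 CPM (-0.052), and subtraction gave 0.22. For WT MPP2-labelled cells (0.36) the values were 0.28 with both scalings, 0.15 at 20 CPM, 0.41 with the block, 0.24 after subtraction and 0.30 with only the groups compared; for WT MPP4-labelled cells (0.17), it was 0.30 with both scalings, 0.099 at 20 CPM and 0.36 after subtraction. The cause of these changes was not tested, except that fewer genes were tested at 20 CPM.

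Leaving out 1 library gave 5 to 8 calls in HSC (5 without KO HSC replicate 2), 0 to 1 in MPP1, 0 to 1 in MPP2-labelled, 2 to 4 in MPP4-labelled cells, 16 to 20 on average, 2 to 4 for the interaction and 0, 2 to 6 and 1 to 2 for the WT comparisons with MPP1, MPP2-labelled and MPP4-labelled cells. The medians ran from 0.53 to 0.61, 0.18 to 0.25, 0.19 to 0.30, 0.26 to 0.44 and 0.32 to 0.42 in the KO comparisons, and from 0.10 to 0.28, 0.32 to 0.51 and 0.10 to 0.33 in the WT ones. No pairing by replicate number was seen: the correlations of same-numbered libraries' deviations ran from -0.02 to 0.03 and 0 of 84 exceeded 0.1. Low counts can hide a pairing and the labels do not settle it, so the replicate block is a description only.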
